A study of Mus musculus with 13 samples.

Results

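Molecular chaperone genes of the cytosol, the endoplasmic reticulum (ER) and the mitochondrion were examined in cultured 4T1-Thy1.1 cells given doxorubicin (DOX), recombinant interleukin-17A (IL-17A), both or neither. The members were the genes whose symbols name an HSP70 or HSP110 protein (Hspa, Hsph), an HSP90 protein, a small heat shock protein (Hspb), the mitochondrial HSP60 and HSP10 (Hspd, Hspe), a J protein (Dnaja, Dnajb, Dnajc) or a subunit of the CCT chaperonin (Cct, Tcp1). Symbols alone chose them, which gave 69 of the 13222 genes in the deposited table. Of these, 67 had enough reads to be tested and 2, *Hspa1a* and *Hspa12a*, did not.

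4T1 is a mammary carcinoma line derived from a BALB/c mouse, and the line used here carried a Thy1.1 transgene in every group. The groups were untreated control (n = 3, replicates 1, 3 and 5), 200 ng/mL DOX (n = 4, replicates 1 to 4), 25 ng/mL IL-17A (n = 3, replicates 2, 3 and 5) and both agents at these doses (DOX+IL-17A, n = 3, replicates 2, 3 and 5), all for 48 hours in DMEM/F12 medium with serum, as labelled. The methods of the study instead name RPMI medium with serum for this line. DOX is a topoisomerase II poison used as chemotherapy and IL-17A is a cytokine made mainly by T cells, and the comparisons ask how each changed the response to the other. The labels do not say whether replicates came from separate cultures, so the p-values measure only the spread between these libraries, which may be technical. Fewer cells and less RNA per cell cannot be told apart in bulk RNA.

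HSP70 proteins hold unfolded stretches of other proteins and release them through a cycle of ATP hydrolysis. J proteins bring them their substrates and speed that hydrolysis, HSP110 proteins exchange the nucleotide, and HSP90 proteins take over later folding of kinases, receptors and other clients. HSP60 with HSP10 folds proteins inside the mitochondrial matrix, and the CCT ring folds actin and tubulin in the cytosol. Heat shock factor 1 induces many of the cytosolic members when proteins unfold, while the unfolded protein response induces those of the ER. Tumour cells often keep such chaperones at a high level.

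Promoter sequence from RefSeq (assembly GRCm38.p6, from 250 bases before to 50 bases after each gene's start) was matched for 55 of the 69 members. It was searched on both strands for the binding motifs of these responses, which are shown here because members with the same motif are compared below. The heat shock element was taken as 3 units of GAA or TTC in alternating orientation with 2 bases between neighbours, in capitals in the lines that follow, with each window written 5′ to 3′ on the strand of the gene. It was found in *Hsph1* (chr5:149636280-149636308, minus strand), *Hspd1* (chr1:55088053-55088082, minus), *Hspe1* (the same bases, plus strand) and *Dnajb6* (chr5:29735844-29735872, plus).
Hsph1: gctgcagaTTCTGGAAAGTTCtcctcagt
Hspd1: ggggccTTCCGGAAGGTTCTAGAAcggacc
Hspe1: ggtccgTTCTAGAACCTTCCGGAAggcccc
Dnajb6: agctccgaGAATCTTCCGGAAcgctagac

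*Hspd1* and *Hspe1* are divergent neighbours, so that both windows are the same element read on opposite strands. The capitals in these windows span 2 overlapping matches to the pattern. The element of *Hsph1* lies after its start, from base 16 to base 28. In all, 4 of 55 members (7.27%) held a heat shock element, against 0.662% of the 27025 genes with a promoter in the table. The 14 members without a matched promoter, among them *Hspa8*, *Hspa9*, *Hsp90aa1* and *Hsp90ab1*, were not searched. Of those searched, *Hspa1a*, *Hspa1b* and *Dnajb1* were among the members without a match to this pattern.

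The ER stress response element was taken as CCAAT, any 9 bases, and CCACG. It was found in *Hspa5* (chr2:34772020-34772048, plus strand), *Dnajc3* (chr14:118937822-118937850, plus) and at 2 places in *Hsp90b1* (chr10:86705633-86705661 and chr10:86705528-86705556, minus), the last in the reverse orientation.
Hspa5: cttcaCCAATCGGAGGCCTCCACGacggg
Dnajc3: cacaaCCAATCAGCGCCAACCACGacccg
Hsp90b1, first place: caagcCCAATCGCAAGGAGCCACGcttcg
Hsp90b1, second place: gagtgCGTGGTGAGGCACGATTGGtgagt

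That element was in 3 of 55 members (5.45%) and in 0.137% of all genes. The motif TGATGNAA is bound by C/EBP and ATF factors. It was found in 1 member (1.82%, against 4.51% of all genes), *Hspa14* (chr2:3512852-3512881, minus strand).
Hspa14: gctaaccgttcTGATGAAAggcggcatcct

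A match describes letters only, and no match says nothing of a factor. Of the 8 members with a match, *Hspa14* and *Hsph1* rose under both DOX and DOX+IL-17A, *Hspa5* rose under DOX, and the others did not pass the test in either comparison.

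Values below are normalized read counts per 1000000 reads of a scaled library, at the 3′ end of transcripts, so that they do not grow with transcript length. They are listed per library in the order of the replicate numbers given above. Reads on listed genes ranged from 4445592 to 16930600 per library, so that 3 reads, taken as the smallest detectable level, were worth between 0.183 and 0.613 normalized units (counting error only). A gene "rose" or "fell" where limma gave a Benjamini-Hochberg adjusted p under 0.05 over all 12319 genes tested, and was "called" where the change was also above 2-fold. Fold changes are on the scale of log2(value + 1), which understates those of low genes.

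Control replicate 1 stood apart from the other control libraries. It differed from their mean by more than 2-fold at 3988 genes (32.4%) and at 13 of 67 members tested (19.4%), against 1.49% to 13.4% of the members in the other libraries. It was the highest of the 13 libraries for 20 members and the lowest for 13, and results that rest on it are given with and without it. In DOX replicate 1 the summed level of 10 muscle genes was 383, against 65.0 to 209 in the other libraries. Without *Eno3*, which other tissues also express, it was 247.6 against 4.47 to 37.0. In the same library the summed level of 3 red blood cell genes was 66.5, against 0 to 14.4. The 6 epithelial markers, *Epcam* and keratin genes among them, summed to between 1753 and 2206 in control, 1464 and 1828 with IL-17A, 937 and 1045 with DOX, and 823 and 1046 with DOX+IL-17A. The summed level of 4 immune cell genes was between 18.6 and 21.3 in control, 10.6 and 16.3 with IL-17A, 27.1 and 51.3 with DOX, and 12.5 and 19.6 with DOX+IL-17A, so that every library with DOX alone lay above every other library. Of these genes *Ptprc*, which marks leukocytes, was at or below 3.57 in every library, with its highest values under DOX+IL-17A. It did not pass with DOX (0.39 ± 0.35, adjusted p = 0.44). *Itgam* was at or below 1.42 in every library. The macrophage gene *Cd68*, named after its values were seen, was called higher with DOX (2.01 ± 0.54, adjusted p = 0.016, and 1.14 without control replicate 1). *Csf1r*, the largest part of the sum in control, did not pass with DOX (0.46 ± 0.43, adjusted p = 0.46). These immune cell genes did not share a pattern over the groups. The summed level of 5 fibroblast genes was between 27.9 and 143, the highest in control replicate 1. The part of these cell types in the results was not tested.

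**Figure D1:**
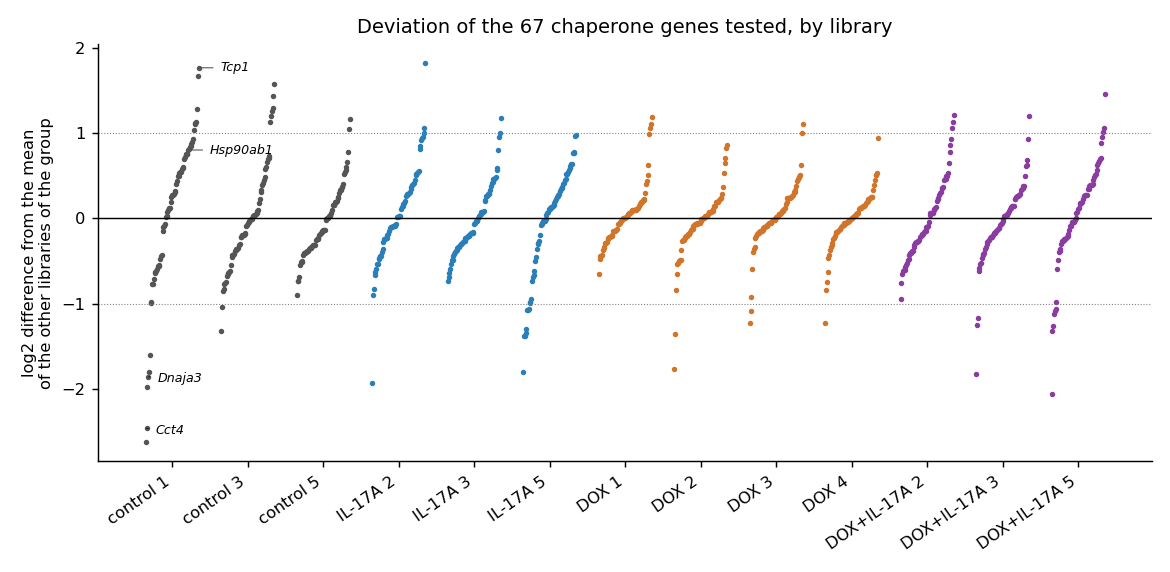
Difference of each of the 67 tested chaperone genes from the mean of the other libraries of its group (vertical axis, log2 of value + 1), in each of the 13 libraries (horizontal axis, coloured by group). Each point is a gene, sorted within its library, and the dotted lines mark 2-fold. Control replicate 1 has the widest spread, with *Tcp1* far above and *Cct4* and *Dnaja3* far below the other controls.

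With DOX alone, members of most classes rose and a few fell. Relative to control, 6 members were called higher (8.96% of the 67 tested, against 9.15% of all genes tested), and 2 were called lower (2.99%, against 6.18% of all genes). Those higher were *Hspa14*, *Dnaja3*, *Dnaja4*, *Dnajb11*, *Dnajc9* and *Dnajc25*, and those lower were *Hspa8* and *Dnajb14*. Without the fold threshold, 15 members rose (22.4%, against 12.4% of all genes) and 4 fell (5.97%, against 9.71%). The median log2 fold change was 0.27 over the members and 0.09 over all genes. With libraries scaled by their size alone, 12 members were called higher and 0 lower, and over all genes the split went from 1127 higher and 761 lower to 1516 higher and 488 lower. That scaling moved the median of all genes to 0.24 and that of the members to 0.42.

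With DOX+IL-17A, 5 members were called higher than in control (7.46%, against 6.95% of all genes) and 1 lower (1.49%, against 5.95%). These were *Hspa14*, *Hsph1*, *Dnaja4*, *Dnajb11* and *Dnajc9*, and *Hspb6*. Without the fold threshold, 9 rose (13.4%, against 9.37%) and 4 fell (5.97%, against 8.34%). The median was 0.19 over the members and 0.04 over all genes. Scaled by library size alone, 6 members were called higher and 0 lower, and all genes went from 856 higher and 733 lower to 1227 and 517. Both comparisons use the same control libraries, so their values are set side by side here and not counted as support for each other.

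**Figure D2:**
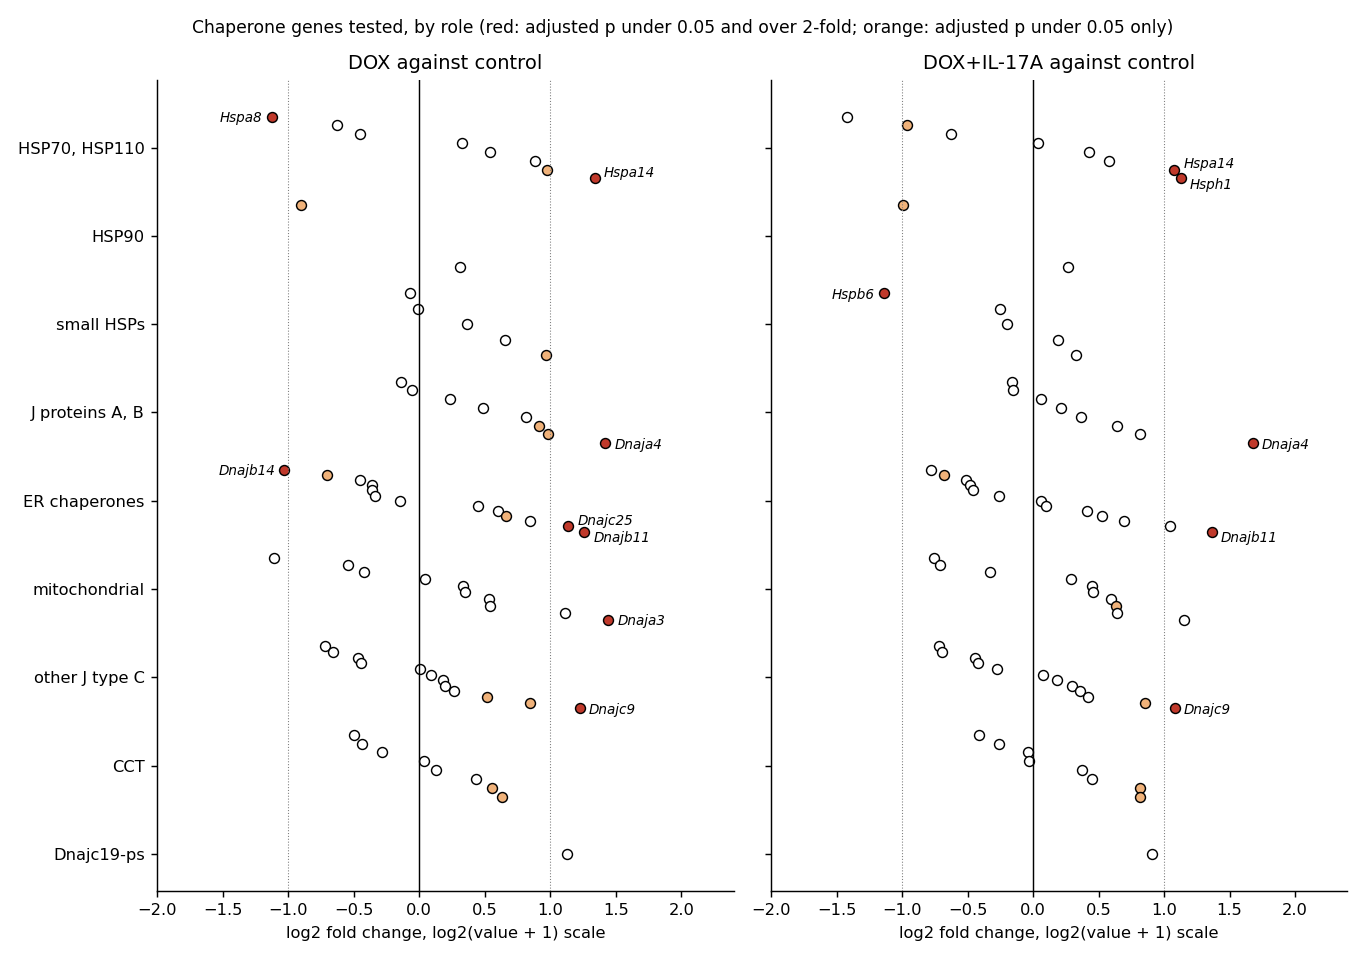
Log2 fold change of the 67 tested chaperone genes (horizontal axis) by role (vertical axis), with DOX (left) and with DOX+IL-17A (right) against control. Each circle is a gene, dotted lines mark 2-fold, and colour marks those past the thresholds given in its title. Called genes fall in most of the roles, and no role has all its genes on 1 side of 0 in both panels except the single *Dnajc19-ps*.

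Among the HSP70 and HSP110 genes of the cytosol, 8 of the 10 listed could be tested, of which 2 rose and 1 fell with DOX (median log2 fold change 0.43), and with DOX+IL-17A 2 rose and 1 fell (median 0.23). *Hspa14* (chr2:3488850-3512814, minus strand), an HSP70-like protein bound to the ribosome together with the J protein *Dnajc2*, was at 49.7, 96.3 and 69.4 in control and 129, 92.6 and 44.0 with IL-17A. It was at 158, 201.3, 161 and 192 with DOX and 171, 168 and 112 with DOX+IL-17A. All libraries with DOX lay above all control libraries, while those with IL-17A alone overlapped control. The log2 fold change was 1.34 ± 0.31 (SE, adjusted p = 0.0072) with DOX and 1.08 ± 0.33 (adjusted p = 0.036) with DOX+IL-17A. The call with DOX+IL-17A was lost without control replicate 1 (0.84), control replicate 5 (1.08, adjusted p = 0.083), DOX+IL-17A replicate 2 (0.97) or DOX+IL-17A replicate 3 (0.99), and in a fit limited to the compared groups (1.08, adjusted p = 0.075).

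*Hspa8* (chr9:40800984-40810087, plus strand) codes for HSC70, the constitutive HSP70 of the cytosol. It was at 1024, 413 and 525 in control, 575, 412 and 544 with IL-17A, 299, 246, 289 and 276 with DOX, and 219, 426 and 321 with DOX+IL-17A. Every DOX library lay below every control library, whereas DOX+IL-17A replicate 3 lay among the controls. With DOX it was called lower, with a log2 fold change of -1.13 ± 0.28 (adjusted p = 0.011). Without control replicate 1 this was -0.75 (adjusted p = 0.029), below the 2-fold threshold, as it was when libraries were scaled by size (-0.95). With DOX+IL-17A the change was -0.96 ± 0.30 (adjusted p = 0.038). That change missed the threshold (-0.58 to -1.06, adjusted p = 0.050 to 0.16) when any 1 of control replicates 1 and 5, DOX replicates 1 to 4, or DOX+IL-17A replicates 2 and 5 was left out, with -0.58 without control replicate 1.

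*Hsph1* (chr5:149614287-149636376, minus strand) codes for HSP110, which exchanges the nucleotide of HSP70. It was at 152, 105 and 110.3 in control, 116, 109 and 134 with IL-17A, 224, 217, 260.2 and 255 with DOX, and 196, 263 and 359 with DOX+IL-17A. No library with DOX overlapped one without. It rose with DOX by 0.98 ± 0.21 on the log2 scale (adjusted p = 0.0051) and was called higher with DOX+IL-17A (1.126 ± 0.23, adjusted p = 0.0041), a call that was below 2-fold without DOX+IL-17A replicate 5 (0.91) and missed the threshold in a fit limited to the compared groups (adjusted p = 0.057). The change with DOX was 1.14 without control replicate 1.

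The stress-inducible HSP70 genes themselves did not pass the test. *Hspa1b* was at 5.75, 23.6 and 16.0 in control, 46.7, 19.3 and 7.96 with IL-17A, 24.6, 26.2, 28.8 and 21.5 with DOX, and 27.4, 19.2 and 11.1 with DOX+IL-17A. The groups overlapped, and its log2 fold change with DOX was 0.89 ± 0.50 (adjusted p = 0.22), or 0.35 without control replicate 1. Its close copy *Hspa1a*, at 0 to 44 reads a library, was not tested. It was at 0.169, 0.183 and 0.354 in control, 0, 0.786 and 0.246 with IL-17A, 3.54, 0.109, 0.280 and 0.715 with DOX, and 0, 0.596 and 0.874 with DOX+IL-17A. Because the coding sequences of these copies are nearly identical, the split of reads between them is uncertain.

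*Hspa4l*, a relative of HSP110, was at 36.9, 55.5 and 54.1 in control and 69.5, 69.6 and 66.8 with IL-17A. With DOX it was at 28.7, 31.1, 44.7 and 37.0, and with DOX+IL-17A at 31.7, 24.7 and 37.2. IL-17A alone gave the highest values and no library with DOX reached them. Against control it did not pass the test with DOX (-0.45 ± 0.23, adjusted p = 0.17) or with DOX+IL-17A (-0.63 ± 0.25, adjusted p = 0.090), though the latter passed without control replicate 1 (-0.81, adjusted p = 0.026). The remaining members of this group, *Hspa2*, *Hspa4* and *Hspa1l*, did not pass, with log2 fold changes between -0.63 and 0.54 with DOX and between -1.42 and 0.58 with DOX+IL-17A.

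Among the cytosolic HSP90 genes, 1 fell and the other did not pass the test. *Hsp90ab1*, the constitutive form, was at 15352, 8600.2 and 9004 in control, 8557, 7799 and 13866 with IL-17A, 6351, 5936, 5182 and 5319 with DOX, and 4380.1, 4702 and 7376 with DOX+IL-17A. All libraries with DOX lay below all those without. It fell with DOX by 0.90 ± 0.29 on the log2 scale (adjusted p = 0.040) and with DOX+IL-17A by 0.99 ± 0.31 (adjusted p = 0.041). Neither passed without control replicate 1 (-0.63, adjusted p = 0.11, and -0.72, adjusted p = 0.083). The fall with DOX also missed the threshold without any 1 of control replicate 5, the DOX replicates, DOX+IL-17A replicate 3 and IL-17A replicate 2 (-0.86 to -1.02, adjusted p = 0.052 to 0.095). That with DOX+IL-17A missed it without any 1 of control replicate 5, the DOX replicates, DOX+IL-17A replicates 2 and 3, and IL-17A replicates 2 and 3 (-0.85 to -1.11, adjusted p = 0.051 to 0.14).

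*Hsp90aa1*, the stress-inducible form, was at 6677, 3993 and 3915 in control, 4425, 3819 and 5904 with IL-17A, 6159, 5700.5, 5553 and 6008 with DOX, and 4688, 4938 and 7850.1 with DOX+IL-17A. Control replicate 1 lay above all DOX libraries and the other control libraries lay below them. Neither comparison passed (0.31 ± 0.27, adjusted p = 0.42, with DOX and 0.27 ± 0.29, adjusted p = 0.55, with DOX+IL-17A).

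Of 5 tested genes with a small heat shock (Hspb) symbol, 1 rose with DOX (median log2 fold change 0.37) and 1 fell with DOX+IL-17A (median -0.20). Leaving out control replicate 1 gave medians of 0.09 and -0.44. The median with DOX was the value of *Hspb11*, which turned from 0.37 to -0.51 without that library and did not pass. *Hspb8*, which acts with the co-chaperone Bag3 in selective autophagy, was at 159, 113 and 71.3 in control, 127, 127 and 174 with IL-17A, 222, 230.0, 204 and 200.0 with DOX, and 96.1, 103 and 193 with DOX+IL-17A. All DOX libraries lay above control, and the DOX+IL-17A libraries overlapped it. It rose with DOX (0.97 ± 0.27, adjusted p = 0.020, and 1.24 without control replicate 1) and did not pass with DOX+IL-17A (0.19 ± 0.29, adjusted p = 0.69). The rise missed the threshold without control replicate 5 (0.67, adjusted p = 0.11) or DOX replicate 2 (0.93, adjusted p = 0.050).

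*Hspb6* (chr7:30552178-30555443, plus strand), or HSP20, was at 13.7, 8.89 and 9.90 in control, 7.21, 8.17 and 12.6 with IL-17A, 10.7, 7.44, 13.3 and 9.66 with DOX, and 3.68, 5.66 and 3.75 with DOX+IL-17A. The DOX+IL-17A libraries lay below every other library. It was called lower with DOX+IL-17A (-1.14 ± 0.33, adjusted p = 0.028). The call was lost without control replicate 1 (-0.97), control replicate 5 (-1.19, adjusted p = 0.066), DOX+IL-17A replicate 2 (-1.05) or DOX+IL-17A replicate 5 (-1.06), with scaling by library size (-0.99), and in a fit limited to the compared groups (-1.14, adjusted p = 0.11). With DOX alone its change was -0.07 ± 0.31 (adjusted p = 0.89), and 0.09 with scaling by library size. Its antisense neighbour *Lin37* did not pass (0.14 ± 0.46 with DOX+IL-17A).

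*Hspb1*, HSP27 in human cells, was close to the detection limit. It was at 0.508, 0.548 and 0.236 in control, 0, 0.786 and 0.410 with IL-17A, 2.90, 0.109, 1.82 and 1.07 with DOX, and 0.409, 0.199 and 0.125 with DOX+IL-17A, between 0 and 36 reads. The groups overlapped and neither comparison with control passed (adjusted p = 0.25 and 0.78). The highest value lay in DOX replicate 1.

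J proteins of types A and B in the cytosol were tested for 8 genes, of which 3 rose with DOX (median log2 fold change 0.65) and 1 rose with DOX+IL-17A (median 0.29). *Dnaja4* (chr9:54698873-54716315, plus strand) was the member with the largest rise in DOX+IL-17A against control. It was at 4.91, 2.253 and 4.01 in control, 3.49, 6.13 and 4.92 with IL-17A, 10.4, 9.74, 13.1 and 12.1 with DOX, and 13.1, 16.5 and 11.8 with DOX+IL-17A. No library with DOX overlapped one without. Its mean was 3.05 times that of control with DOX (log2 fold change 1.42 ± 0.31, adjusted p = 0.0049) and 3.70 times with DOX+IL-17A (1.68 ± 0.33, adjusted p = 0.0035). Both calls held when any 1 library was left out. Its antisense neighbour *Wdr61* did not pass (0.19 ± 0.24 with DOX).

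*Dnaja1* and *Dnaja2* are the main type A partners of HSP70 in the cytosol. *Dnaja1* was at 257, 196 and 158 in control, 348, 213 and 129 with IL-17A, 337, 422, 370.5 and 382 with DOX, and 299, 334 and 306 with DOX+IL-17A. Libraries with DOX lay above control, while IL-17A replicate 2 lay among them. It rose with DOX (0.91 ± 0.27, adjusted p = 0.023), as did *Dnaja2* (0.99 ± 0.26, adjusted p = 0.015), and neither passed with DOX+IL-17A (adjusted p = 0.13 and 0.054). The rise of *Dnaja1* missed the threshold without control replicate 5 (0.74, adjusted p = 0.10) or DOX replicate 2, 3 or 4 (0.86 to 0.92, adjusted p = 0.050 to 0.060). With DOX+IL-17A, *Dnaja1* passed without control replicate 1 (0.83, adjusted p = 0.048), and *Dnaja2* without control replicate 3 (1.01, adjusted p = 0.032) or IL-17A replicate 2 or 5 (both 0.82, adjusted p = 0.031 and 0.025). *Smu1*, which lies antisense at the end of *Dnaja1*, did not pass (0.71 ± 0.31, adjusted p = 0.12).

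*Dnajb1*, or HSP40, is the type B partner that heat shock factor 1 induces. It was at 93.7, 43.2 and 57.9 in control, 38.7, 42.1 and 70.2 with IL-17A, 59.7, 54.6, 49.1 and 77.8 with DOX, and 75.7, 56.0 and 86.4 with DOX+IL-17A. All groups overlapped, and neither comparison with control passed (-0.05 ± 0.28 and 0.21 ± 0.30). The other type B genes, *Dnajb2*, *Dnajb4*, *Dnajb5* and *Dnajb6*, had log2 fold changes between -0.14 and 0.82 with DOX and did not pass.

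**Figure D3:**
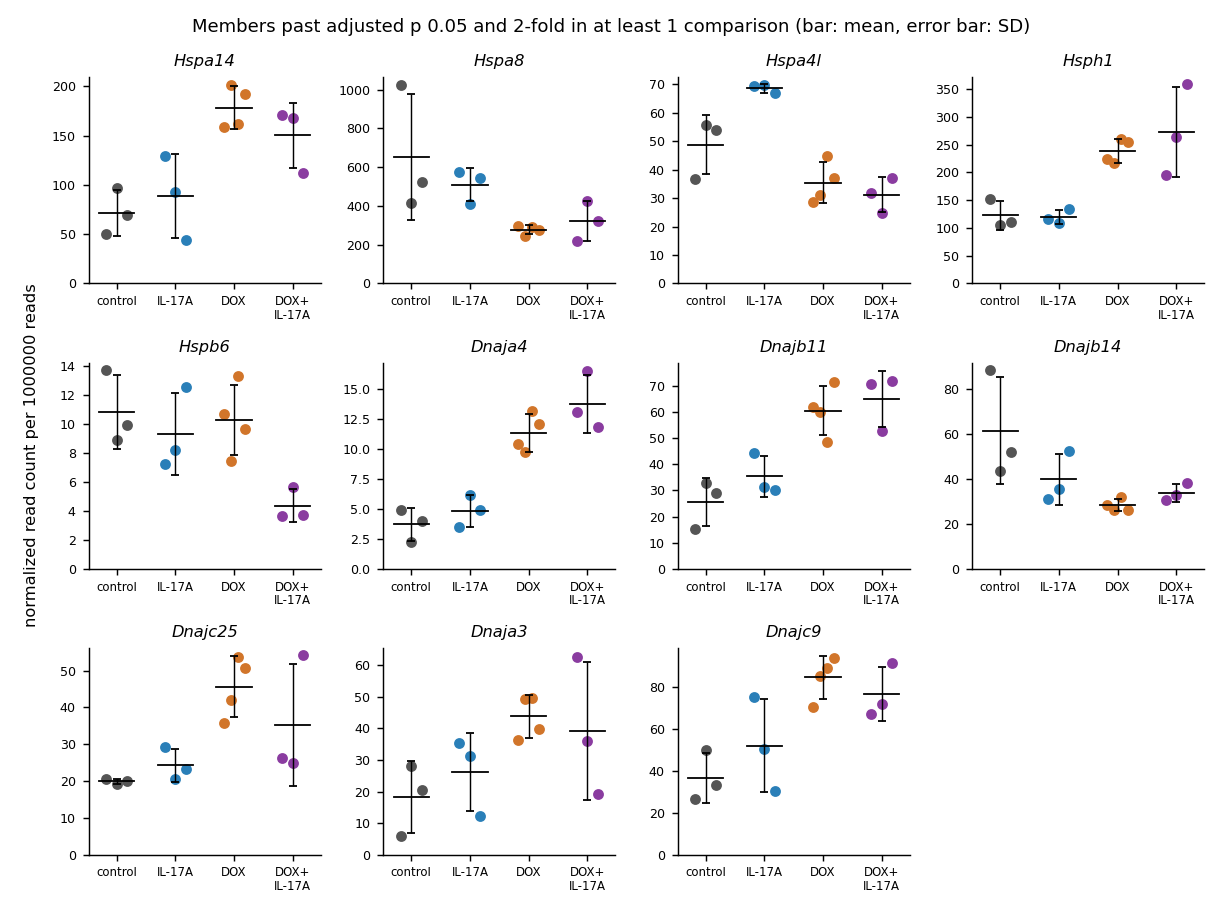
Normalized read count per 1000000 reads (vertical axes, linear from 0) of the 11 members called in at least 1 comparison, by group. Points are libraries in the order of their replicate numbers, bars are means and error bars SD (n = 3, and n = 4 for DOX). The libraries with DOX are separate from those without for *Hsph1*, *Dnaja4* and *Dnajb11*, and for *Hspb6* only the DOX+IL-17A libraries are low.

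In the ER, 13 members were tested. With DOX 3 rose and 2 fell (median log2 fold change -0.15), and with DOX+IL-17A 1 rose and 1 fell (median 0.06). The sign of the median with DOX rested on control replicate 1. It was 0.20 without that library, and -0.0019 with libraries scaled by size. *Dnajb11* (chr16:22857845-22879634, plus strand), a J protein of the ER lumen that serves BiP, was at 15.2, 32.7 and 29.1 in control, 44.4, 31.4 and 30.3 with IL-17A, 61.9, 59.9, 48.5 and 71.5 with DOX, and 70.8, 52.7 and 71.6 with DOX+IL-17A. Every library with DOX lay above every library without. It was called higher with DOX (1.26 ± 0.27, adjusted p = 0.0042) and also under DOX+IL-17A (1.36 ± 0.28, adjusted p = 0.0049). When control replicate 1, the lowest library, was left out these were 0.93 (adjusted p = 0.0089) and 1.04 (adjusted p = 0.0072). The call under DOX+IL-17A was lost in a fit limited to the compared groups (adjusted p = 0.0503).

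*Hspa5* codes for BiP, the HSP70 of the ER, which carried the ER stress response element shown above. It was at 1917, 1186 and 1182 in control, 1791, 1162 and 1487 with IL-17A, 2310.1, 2383, 2044 and 2099 with DOX, and 1776, 1825 and 2465 with DOX+IL-17A. DOX libraries lay above control, and those with DOX+IL-17A overlapped control replicate 1. It rose with DOX (0.66 ± 0.23, adjusted p = 0.0497) and did not pass with DOX+IL-17A (0.52 ± 0.25, adjusted p = 0.15). Both passed without control replicate 1, at 0.90 and 0.76. The rise with DOX missed the threshold (0.55 to 0.70, adjusted p = 0.054 to 0.17) when any other library except DOX+IL-17A replicate 5 was left out.

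The other genes with this element did not pass the test. *Hsp90b1* (GRP94) was at 1158, 862 and 847 in control, 904, 869.9 and 1062 with IL-17A, 734, 762, 638 and 635 with DOX, and 601, 803 and 673 with DOX+IL-17A. All libraries with DOX lay below those without, but the changes of -0.45 ± 0.19 (adjusted p = 0.092) and -0.46 ± 0.20 (adjusted p = 0.12) did not pass. *Dnajc3* (p58IPK), a J protein that restrains the kinase PERK, was at 60.2, 64.4 and 63.5 in control, 72.3, 67.4 and 43.2 with IL-17A, 83.0, 85.7, 87.4 and 87.3 with DOX, and 79.5, 68.1 and 55.9 with DOX+IL-17A. DOX libraries lay above all the others, with a change from control of 0.45 ± 0.20 (adjusted p = 0.13).

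*Dnajb9* (ERdj4), which joins BiP to the sensor IRE1, was at 3.55, 2.13 and 1.89 in control, 3.15, 2.04 and 3.69 with IL-17A, 7.57, 8.54, 2.52 and 4.11 with DOX, and 11.0, 9.93 and 1.75 with DOX+IL-17A. Libraries with DOX lay below, within and above the control range, and the means of 5.68 ± 2.84 (SD, n = 4) and 7.57 ± 5.08 (SD, n = 3) against 2.52 ± 0.8999 did not pass (adjusted p = 0.23 and 0.18). Without DOX+IL-17A replicate 5 the second was called (1.73, adjusted p = 0.023).

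Of the remaining ER J proteins, *Dnajc25* (chr4:58995062-59025573, plus strand), a J protein of the ER membrane, was at 20.6, 19.2 and 20.04 in control, 29.2, 20.4 and 23.3 with IL-17A, 35.7, 42.2, 53.8 and 50.8 with DOX, and 26.2, 25.0 and 54.3 with DOX+IL-17A. All DOX libraries lay above control, and DOX+IL-17A replicates 2 and 3 lay within the IL-17A range. It was called higher with DOX (1.14 ± 0.27, adjusted p = 0.0089) and kept the call when any 1 library was left out. With DOX+IL-17A it did not pass (0.70 ± 0.29, adjusted p = 0.11). A same-strand gene, *Gm20503*, overlaps its end.

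*Dnajb14* (chr3:137867675-137916557, plus strand), which sits in the ER membrane facing the cytosol, was at 88.5, 43.7 and 52.0 in control, 31.2, 35.7 and 52.5 with IL-17A, 28.7, 26.4, 32.0 and 26.2 with DOX, and 30.7, 32.7 and 38.1 with DOX+IL-17A. DOX libraries lay below all control libraries. It was called lower with DOX (-1.03 ± 0.26, adjusted p = 0.011), a change of -0.74 without control replicate 1, -0.998 without DOX replicate 2, -0.99 without DOX replicate 4 and -0.86 with scaling by library size, each under 2-fold. With DOX+IL-17A it did not pass (-0.78 ± 0.28, adjusted p = 0.061), though it did without control replicate 3 (-0.99, adjusted p = 0.034). *Dnajc1* (ERdj1) fell with DOX (-0.70 ± 0.19, adjusted p = 0.015) and also under DOX+IL-17A (-0.68 ± 0.20, adjusted p = 0.029). Both missed the threshold without control replicate 5 (-0.64, adjusted p = 0.065, and -0.61, adjusted p = 0.10), as did the second without DOX+IL-17A replicate 2 (-0.59) or 3 (-0.60). Its antisense neighbour *Mllt10* also fell (-1.21 ± 0.21, adjusted p = 0.0012, with DOX), and reads of this pair cannot be told apart if counting ignored strand.

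Mitochondrial chaperones numbered 10, of which 1 rose with DOX (median log2 fold change 0.34) and 1 rose with DOX+IL-17A (median 0.45). *Dnaja3* (chr16:4639989-4707695, plus strand), the J partner of mitochondrial HSP70, was at 5.92, 28.2 and 20.51 in control, 35.3, 31.3 and 12.1 with IL-17A, 36.4, 49.3, 49.8 and 39.7 with DOX, and 62.6, 36.05 and 19.2 with DOX+IL-17A. DOX libraries lay above control and IL-17A, and DOX+IL-17A spread over the whole range. It was called higher with DOX (1.44 ± 0.48, adjusted p = 0.042), but leaving out any of 8 libraries ended the call. The change was 0.83 (adjusted p = 0.17) without control replicate 1. The other such libraries were control replicate 5 (1.64, adjusted p = 0.057), DOX replicates 1, 2, 3 and 4 (1.53, 1.38, 1.38 and 1.49), and DOX+IL-17A replicate 3 and IL-17A replicate 3 (both 1.44). The call was also lost with voom and limma (1.296, adjusted p = 0.074) and with edgeR's quasi-likelihood test (1.25, adjusted p = 0.080), and was made by DESeq2 (1.23, adjusted p = 0.040). With DOX+IL-17A it did not pass (1.15 ± 0.51, adjusted p = 0.13).

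*Hspa9*, the mitochondrial HSP70 (mortalin), was at 309, 298 and 272 in control, 391, 329 and 299.5 with IL-17A, 426, 448, 405 and 417 with DOX, and 615, 420.1 and 363 with DOX+IL-17A. Libraries with DOX lay above control. It rose with DOX+IL-17A (0.63 ± 0.20, adjusted p = 0.044) and did not pass with DOX (0.53 ± 0.19, adjusted p = 0.058). Between DOX+IL-17A and DOX the difference was 0.10 ± 0.19 (adjusted p = 0.998). The rise missed the threshold (0.41 to 0.69, adjusted p = 0.059 to 0.18) without any 1 of control replicates 3 and 5, the DOX replicates, DOX+IL-17A replicates 2 and 3, and IL-17A replicate 3. The change with DOX passed without DOX+IL-17A replicate 2 (adjusted p = 0.031) or 5 (adjusted p = 0.043).

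The HSP60 gene *Hspd1* was at 1399, 1186 and 1134 in control, 1299, 1086 and 1516 with IL-17A, 1542, 1573, 1506 and 1614 with DOX, and 1271, 1754 and 2137 with DOX+IL-17A. Its divergent neighbour *Hspe1*, which codes for HSP10, was at 537, 384 and 356 in control, 486, 388 and 411 with IL-17A, 495, 521, 550.3 and 578 with DOX, and 591, 512 and 628 with DOX+IL-17A. The pair, which shares the heat shock element shown above, had near-equal changes from control that did not pass. These were 0.34 ± 0.21 (*Hspd1*) and 0.35 ± 0.18 (*Hspe1*) with DOX, and 0.45 ± 0.22 and 0.46 ± 0.20 with DOX+IL-17A. With control replicate 1 left out, *Hspe1* passed in both (0.53, adjusted p = 0.033, and 0.64, adjusted p = 0.018) and *Hspd1* in neither. The remaining 6 genes ranged from -1.11 to 1.11 with DOX and did not pass. *Dnajc19* has a processed pseudogene, *Dnajc19-ps*, with near-identical sequence that is also a member, and their reads may be split between them.

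**Figure D4:**
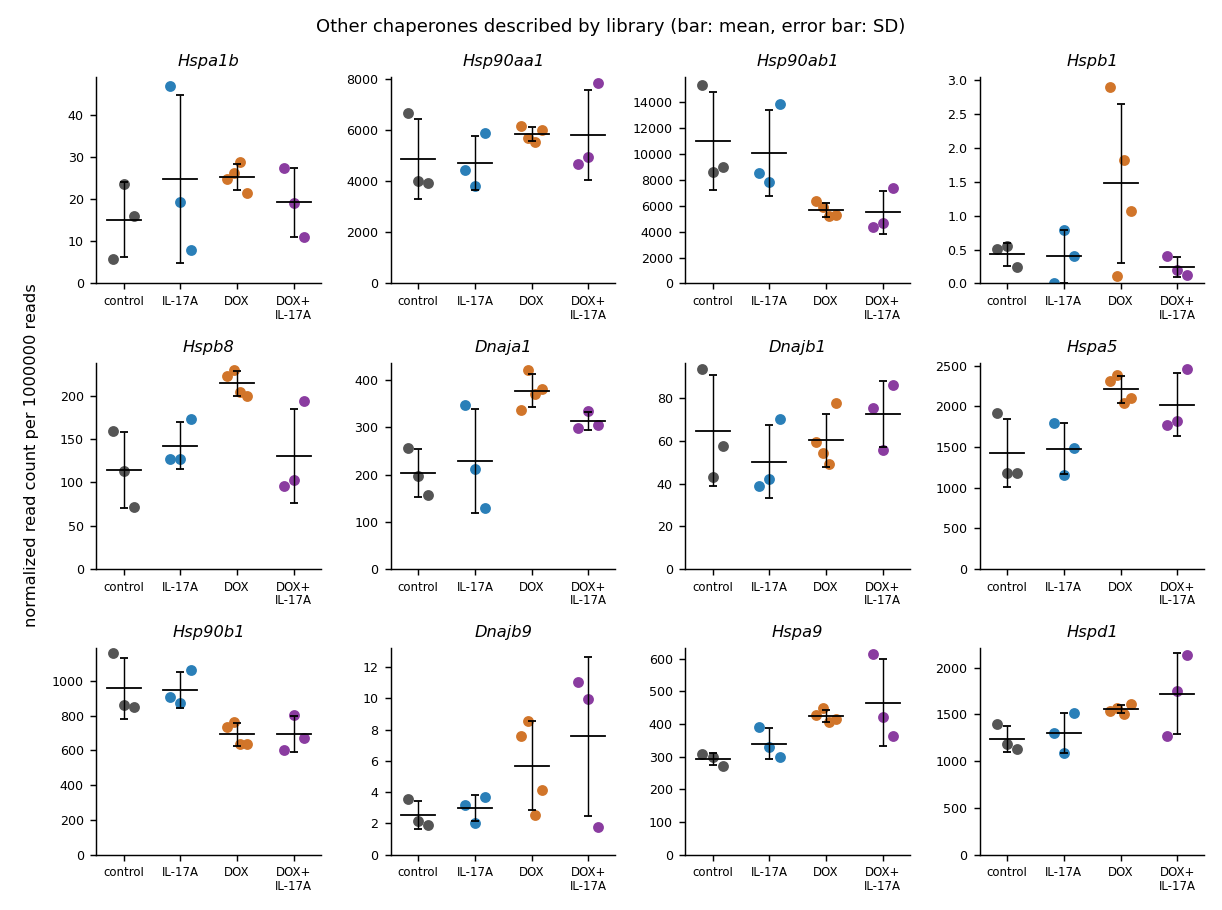
Normalized read count per 1000000 reads (vertical axes, linear from 0) of 12 members that were described whatever their values and were not called, by group. Points are libraries in the order of their replicate numbers, bars are means and error bars SD (n = 3, and n = 4 for DOX). *Hsp90ab1* and *Hsp90b1* are low in all libraries with DOX, *Hspa9* is above control in them, and *Hspb1* stays below 3 in every library.

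Among 12 other J proteins of type C, 3 rose with DOX (median log2 fold change 0.14) and 2 rose with DOX+IL-17A (median 0.13). *Dnajc9* (chr14:20384638-20388910, minus strand), a nuclear J protein that is also a histone chaperone, was at 26.7, 50.05 and 33.2 in control, 75.1, 50.5 and 30.5 with IL-17A, 70.3, 85.4, 89.2 and 94.1 with DOX, and 67.3, 71.7 and 91.6 with DOX+IL-17A. Libraries with DOX lay above control, while IL-17A replicate 2 lay among them. It was called higher with DOX (1.23 ± 0.28, adjusted p = 0.0069) and also under DOX+IL-17A (1.08 ± 0.30, adjusted p = 0.023). The first call held when any 1 library was left out. The second was lost without control replicate 1 (0.88), control replicate 5 (1.04, adjusted p = 0.068), DOX+IL-17A replicate 3 (1.125, adjusted p = 0.054) or DOX+IL-17A replicate 5 (0.95), and in a fit limited to the compared groups (1.08, adjusted p = 0.073).

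*Dnajc2*, the ribosome-bound partner of *Hspa14*, rose with DOX (0.84 ± 0.18, adjusted p = 0.0045) and also under DOX+IL-17A (0.85 ± 0.19, adjusted p = 0.0077). It was at 399, 371 and 327 in control, 462, 371 and 449.6 with IL-17A, 563, 681, 684 and 697 with DOX, and 552, 671 and 772 with DOX+IL-17A. All libraries with DOX lay above all without, as for *Hsph1*, *Dnaja4* and *Dnajb11*.

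The CCT chaperonin had 8 subunit genes, all tested. With DOX 2 rose and 0 fell (median log2 fold change 0.08). The counts were the same with DOX+IL-17A (median 0.17, or 0.32 without control replicate 1). *Cct3* rose by 0.56 ± 0.17 (adjusted p = 0.029) and 0.82 ± 0.18 (adjusted p = 0.0070), and *Cct6a* by 0.63 ± 0.18 (adjusted p = 0.020) and 0.82 ± 0.19 (adjusted p = 0.0094), with DOX and with DOX+IL-17A. The 6 other subunits of the ring did not pass in either comparison. *Cct3* was at 236, 225 and 272 in control, 318, 359, 357 and 409 with DOX, and 459, 390.5 and 445 with DOX+IL-17A. With DOX the rise of *Cct3* missed the threshold without control replicate 3 or DOX replicate 2, 3 or 4 (0.50 to 0.56, adjusted p = 0.061 to 0.088), and that of *Cct6a* without control replicate 5 or DOX replicate 1 or 3 (0.56 to 0.61, adjusted p = 0.054 to 0.083).

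For several CCT genes, control replicate 1 lay far from the other controls. *Tcp1*, subunit 1, was at 349.7, 95.0 and 109.7 in control, 128, 93.8 and 169 with IL-17A, 137, 95.3, 112 and 95.9 with DOX, and 95.7, 129 and 126 with DOX+IL-17A. Apart from that library all its values lay between 93.8 and 169. Its change with DOX was -0.50 ± 0.35 (adjusted p = 0.32) with that library and 0.09 without it. *Cct5* was at 840.1, 417 and 526 in control, 471, 406 and 604 with IL-17A, 421, 428, 416 and 416 with DOX, and 397, 451 and 595 with DOX+IL-17A. Its change with DOX was -0.44 ± 0.23 (adjusted p = 0.19), and -0.15 without control replicate 1. *Cct4*, named after its values were seen, went the other way, at 76.5 in control replicate 1 and 438 and 413 in the other controls, and its change with DOX turned from 0.43 to -0.39 without that library. *Cct2* (345, against 158 and 179) and *Cct7* (1206, against 597 and 528), also named after their values were seen, were high in control replicate 1. Without it their changes with DOX went from -0.29 to 0.06 (*Cct2*) and from 0.04 to 0.41 (*Cct7*), and neither passed.

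**Figure D5:**
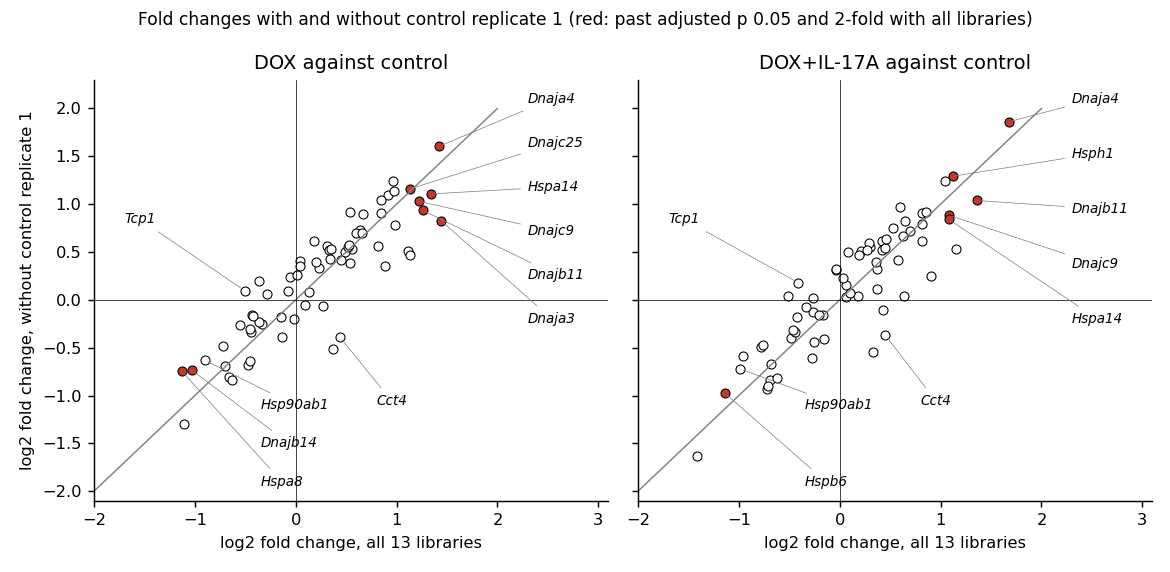
Log2 fold change of the 67 tested chaperone genes with all 13 libraries (horizontal axis) and without control replicate 1 (vertical axis), for DOX (left) and DOX+IL-17A (right) against control. Each circle is a gene, red marks those called with all libraries, and the grey line marks equal values. *Tcp1* and *Cct4* change sign, and *Dnaja3* and *Hspa8* move toward 0.

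When control replicate 1 was left out, other members were called. With DOX, 961 of all genes were then called higher and 750 lower (13.4% of those tested). Of the members, 7 were called higher and 0 lower. Of the original calls *Dnaja4*, *Dnajc9*, *Dnajc25* and *Hspa14* were among them, and *Dnaja1*, *Hspb8* and *Hsph1* were added, while *Dnaja3*, *Dnajb11*, *Hspa8* and *Dnajb14* were no longer called. With DOX+IL-17A, 3 members were called higher (*Dnaja4*, *Dnajb11* and *Hsph1*) and 0 lower. Of all genes, 900 were called higher and 846 lower in that comparison (13.6% of those tested).

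IL-17A added to DOX changed no chaperone past the threshold. In DOX+IL-17A against DOX, 0 of 67 members were called in either direction (limma), with 4 at an unadjusted p under 0.05, against 782 of the 12319 genes, and voom, DESeq2 and edgeR's quasi-likelihood test also called 0. Of all genes, 0.114% were called higher and 0.325% lower. The 4, named after their values were seen, were *Hspb6* (-1.07 ± 0.31, adjusted p = 0.26), *Dnajb4* (-0.65 ± 0.22, adjusted p = 0.44), *Hspb8* (-0.78 ± 0.27, adjusted p = 0.47) and *Hspb1* (-0.86 ± 0.40, adjusted p = 0.78).

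IL-17A alone gave 0 called members against control (limma), with 0 at an unadjusted p under 0.05, against 380 of the 12319 genes. The other 3 tools also called 0 members. Of all genes 0.00812% were called higher and 0% lower. DESeq2 and edgeR's test each had 1 at an unadjusted p under 0.05. The smallest p was that of *Dnajb14* (-0.58 ± 0.28, adjusted p = 0.96). The interaction, the change made by IL-17A in DOX-treated cells less that in cells not given DOX, was called for 0 members and 0% of all genes (limma), with 2 members at an unadjusted p under 0.05 against 556 of all genes, *Hspb8* (-1.15 ± 0.40, adjusted p = 0.90) and *Dnajb14* (0.83 ± 0.38, adjusted p = 0.90), and for 0 under the other 3 tools.

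Where IL-17A was present in both groups, DOX changed few members. Relative to IL-17A, DOX+IL-17A gave 2 members called higher (2.99%, against 4.92% of all genes), *Hsph1* (1.14 ± 0.23, adjusted p = 0.0054) and *Dnaja4* (1.35 ± 0.33, adjusted p = 0.015). It gave 1 called lower (1.49%, against 4.92%), *Hspa4l* (chr3:40744495-40796103, plus strand, -1.13 ± 0.25, adjusted p = 0.0085). Without the fold threshold, 4 rose (5.97%, against 6.51%), *Cct6a* and *Dnajc2* being the others, and 2 fell (2.99%, against 6.75%), with *Dnajc1* the other. The groups did not overlap for any of these genes. Leaving out DOX+IL-17A replicate 3 left 1 call, with *Dnaja4* at 1.23 (adjusted p = 0.061) and *Hspa4l* at -0.98. *Dnaja4* was also lost without IL-17A replicate 2 (1.17, adjusted p = 0.055), and *Hsph1* was below 2-fold without DOX+IL-17A replicate 5 (0.92). Those past the adjusted p alone were less stable. *Cct6a* missed the threshold without DOX+IL-17A replicate 2 or 3 or IL-17A replicate 3 or 5 (0.55 to 0.73, adjusted p = 0.052 to 0.13), and *Dnajc1* without any 1 of the same libraries (-0.72 to -0.83, adjusted p = 0.053 to 0.064). *Dnajc2* missed it without any library except control replicate 1 and DOX+IL-17A replicate 2 (0.52 to 0.69, adjusted p = 0.051 to 0.17). Scaled by library size alone, 4 were called higher, with *Dnajb11* and *Hspa14* added, and 0 lower (*Hspa4l* at -0.91), while all genes went from 606 higher and 606 lower to 1017 and 381.

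The regulators and partners of these chaperones were read from separate gene lists. For comparison, 12.4% of all genes tested rose and 9.71% fell with DOX (median log2 fold change 0.09). With DOX+IL-17A 9.37% rose and 8.34% fell (median 0.04). These lists are short, and no test compared their counts with those shares. Of 23 tested heat shock factors and cytosolic co-chaperones, 3 rose and 0 fell with DOX (median log2 fold change 0.15). With DOX+IL-17A 3 rose and 0 fell (median 0.44). These medians were 0.33 and 0.36 without control replicate 1. *Cdc37l1*, an HSP90 co-chaperone, rose by 1.06 ± 0.18 (adjusted p = 0.0011) with DOX and *Ahsa1*, which activates the ATPase of HSP90, by 0.72 ± 0.23 (adjusted p = 0.037). The rise of *Ahsa1* missed the threshold without control replicate 3 or 5 or any 1 DOX replicate (0.55 to 0.75, adjusted p = 0.060 to 0.16). *Cryab*, a small heat shock protein under another name, rose with DOX (1.28 ± 0.33, adjusted p = 0.012, and 0.77 without control replicate 1, where it was lowest). The factor genes *Hsf1* (0.72 ± 0.28, adjusted p = 0.075) and *Hsf2* (0.41 ± 0.22, adjusted p = 0.18) did not pass with DOX, and *Hsf2* rose with DOX+IL-17A (0.73 ± 0.23, adjusted p = 0.041). That rise missed the threshold without any library except control replicate 1, DOX replicates 1 and 2 and IL-17A replicate 5 (0.67 to 0.79, adjusted p = 0.050 to 0.11).

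Of 25 genes of the unfolded protein response and of ER folding, 6 rose and 2 fell with DOX (median 0.27), and the counts were the same with DOX+IL-17A (median 0.39). *Ddit3*, which codes for the stress factor CHOP, was at 30.6, 14.3 and 13.2 in control, 15.0, 9.59 and 21.7 with IL-17A, 82.0, 70.4, 57.2 and 65.3 with DOX, and 51.9, 53.4 and 68.4 with DOX+IL-17A. All libraries with DOX lay above all those without, with changes of 1.86 ± 0.31 (adjusted p = 8.7e-04) and 1.62 ± 0.33 (adjusted p = 0.0042). *Calr* (calreticulin, 1.66 ± 0.27) and *Herpud1* (ER-associated degradation, 1.501 ± 0.31) also rose with DOX, as did *Hyou1*, the HSP110 of the ER (1.43 ± 0.22, adjusted p = 6.2e-04, and 1.69 ± 0.24 with DOX+IL-17A). *Ero1l*, an oxidase that renews disulfide bond formation, fell by 1.94 ± 0.24 on the log2 scale (adjusted p = 9.0e-05), and *Sil1*, the nucleotide exchange factor of BiP, fell by 1.84 ± 0.38 (adjusted p = 0.0036). *Xbp1* (-0.80 ± 0.48, adjusted p = 0.24) and *Atf4* (0.42 ± 0.39, adjusted p = 0.46) did not pass.

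Mitochondrial co-chaperones and proteases numbered 13 tested genes, of which 3 rose and 1 fell with DOX (median 0.44). With DOX+IL-17A 3 rose and 0 fell (median 0.12). Leaving out control replicate 1 put the median with DOX at 0.17. *Grpel1* (0.76 ± 0.18, adjusted p = 0.0071) and *Grpel2* (1.15 ± 0.31, adjusted p = 0.016), the nucleotide exchange factors of mitochondrial HSP70, and the matrix protease gene *Lonp1* (0.91 ± 0.19, adjusted p = 0.0044) rose with DOX. The call of *Grpel2* was lost without control replicate 5 (1.125, adjusted p = 0.053) or DOX replicate 3 (1.01, adjusted p = 0.054). *Yme1l1*, a protease of the inner membrane, fell with DOX by 0.60 ± 0.21 (adjusted p = 0.048), and did not pass without control replicate 1 (-0.37, adjusted p = 0.17) or any other library except control replicate 3 and IL-17A replicate 5 (-0.55 to -0.68, adjusted p = 0.052 to 0.12).

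Of 14 tested prefoldin genes and CCT co-factors, 1 rose and 2 fell in each comparison (median -0.10 with DOX and -0.06 with DOX+IL-17A). *Tbca*, a tubulin folding co-factor, fell by 1.17 ± 0.22 (adjusted p = 0.0018) and *Pfdn5*, a prefoldin subunit, fell by 0.81 ± 0.21 (adjusted p = 0.014) with DOX. Leaving out control replicate 1 put *Tbca* at -0.93. *Txndc9*, which binds CCT, rose by 0.67 ± 0.18 (adjusted p = 0.017). These lists, like the members, were written with earlier results of these data known, and their counts describe the libraries only.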

How the data were processed

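QuantSeq 3′ mRNA libraries of 4T1-Thy1.1 cells were sequenced by the authors as single 75 base reads. Per the labels and the methods, reads were aligned to mm10 with STAR and counted per gene with featureCounts, and the counts were normalized by the authors with TMM. The deposited table holds this normalized signal (reads per 1000000 of the TMM-scaled library), for 13223 entries, of which 1 identical second entry was dropped. All values (100%) were whole multiples of 1 read within 0.01 read, so the reads were recovered for the count tests.

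Main test: limma 3.58.1 with trend on log2(value + 1), 13 libraries, condition as the only factor (9 residual degrees of freedom), 12319 genes kept by filterByExpr of edgeR 4.0.16, Benjamini-Hochberg adjustment over all of them. It was tested on simulated data first. Alternatives were voom with limma, DESeq2 1.42.0, edgeR's quasi-likelihood test, library size scaling, no filter, a filter at 10 mean reads, a pseudocount of 0.1, fits limited to the compared groups, a block for replicate number (5 residual degrees of freedom), calls by adjusted p without a fold threshold, and omission of each library in turn. Within groups, no library was a copy of another (15 pairs, chi-square per degree of freedom 7.89 to 186). In DOX+IL-17A against IL-17A the 3 same-numbered pairs deviated together (r = 0.168, 0.203 and 0.355 across genes). The main test did not pair them, so the values given for that comparison are unpaired. The fit with a block for replicate number changed no call of a member there.

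Described with every library were the called members and 20 fixed members. Members past the adjusted p alone were named up to 5 in each direction, and pathway genes up to 3 in each direction of a list, plus *Hsf1*, *Hsf2*, *Xbp1*, *Ddit3* and *Atf4*. Members and lists were chosen with earlier results of these data known. Gene positions are those of GENCODE M21 on GRCm38. An antisense gene overlapped the last 2000 bases of 16 members and a same-strand gene those of 5. Whether counting used strand is not given in the sources used here.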

Additional observations from a re-analysis of the deposited data

Results flagged for a closer look

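With the 54 named genes examined in the 4 DOX libraries, 2 had a library far from the others relative to the range of the group. Chance flags about 1 in 20 groups. *Dnajc2* was at 563 in DOX replicate 1, below the 681 to 697 of the other DOX libraries and above all control libraries. *Lonp1* was at 185 in DOX replicate 3, above the 167 to 170.0 of the other DOX libraries. No named gene had an effect of IL-17A that differed with and without DOX past the test.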

How the results depend on the processing

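The 17 called member results (8 with DOX and 6 with DOX+IL-17A against control, 3 in DOX+IL-17A against IL-17A) were recomputed under 374 alternatives in all, with 328 kept, 46 lost and 0 reversed. Counts of called members went from 8 to 19 with the adjusted p alone for DOX against control, and to between 7 and 12 when 1 library was left out (12 without control replicate 3). For DOX+IL-17A against control they went from 6 to 3 with the replicate block, 1 in a fit limited to the compared groups, 13 with the adjusted p alone, and between 3 and 9 when 1 library was left out (3 without control replicate 1 or 5, 9 without control replicate 3). For DOX+IL-17A against IL-17A they went from 3 to 6 with the adjusted p alone and between 1 and 4 when 1 library was left out. The other comparisons stayed at 0 under every alternative run. With the replicate block, DOX against control also gave 8, but without *Dnaja3* (1.128, adjusted p = 0.075) and *Dnajb14* (-0.87, adjusted p = 0.0545) and with *Hspb8* and *Hsph1*, and the calls of *Hspb6*, *Hspa14* and *Dnajc9* with DOX+IL-17A were lost (-0.94, 0.82 and 0.89). Over all groups, same-numbered libraries had a mean r of 0.151 over 13 pairs, against -0.0368 over 50 pairs with different numbers. Single pairs ranged from -0.175 to 0.491 with the same number and from -0.564 to 0.468 with different numbers. The labels do not say what a shared number means. The cause of these moves was not tested.

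Signs turned only for changes that were not called. For DOX against control, *Dnajb1* (-0.05) went to 0.0192 with voom and 0.12 with library size scaling and ranged from -0.31 to 0.24 when 1 library was left out, and *Hspb6* (-0.07) went to 0.0891 with library size scaling and 0.0762 with the replicate block and ranged from -0.20 to 0.0931. *Tcp1* ranged from -0.84 to 0.0903 and *Cct4* from -0.39 to 0.87. For DOX+IL-17A against control, leaving out 1 library gave ranges of -0.49 to 0.0189 (*Cct5*), -0.0416 to 0.51 (*Dnajb1*), -0.0225 to 0.23 (*Dnajc3*), -0.10 to 0.83 (*Hspa1b*), -0.13 to 0.46 (*Hspb8*), -0.76 to 0.18 (*Tcp1*), -0.37 to 0.88 (*Cct4*) and -1.06 to 0.0024 (*Xbp1*), and the replicate block gave -0.0427 (*Hspa1b*), 0.16 (*Hspb1*) and -0.0014 (*Cct4*). *Hspb1* and *Hspa1a*, at few reads per library, are limited by depth.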
